A study of Mus musculus with 8 samples.

Results

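Transcripts that mark mast cells and basophils were followed in bulk RNA of mouse peritoneal macrophages, knocked out for Men1 or wild type. Menin, the product of Men1, is a scaffold of histone methyltransferase complexes. The 10 genes, out of 54532 rows of the gene count table, were chosen by symbol: Cpa3, Mcpt4, Cma1, Tpsb2 and Mcpt8 encode granule proteases, Kit, Fcer1a and Ms4a2 encode receptors or receptor subunits, Gata2 a transcription factor and Hdc an enzyme. Each symbol matched 1 row, a protein-coding gene, and the gene spans below are those of the deposited count table (GRCm38). The cells came from the peritoneal cavity after thioglycollate broth, an irritant that recruits leukocytes, and all 8 libraries share that stimulus. There were 3 M_KO libraries (M_KO_5944, M_KO_5645 and M_KO_5642), 3 M_WT libraries (M_WT_5643, M_WT_6258 and M_WT_6255), 1 F_KO library (F_KO_5639) and 1 F_WT library (F_WT_5638), named as in the sample titles. Values per library follow this order throughout. The labels give the genotype as KO or WT. The meaning of M and F, the strain, the age, the allele and the way Men1 was deleted were not stated in the labels.

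Mast cells live in tissues, among them the peritoneal cavity, and store proteases, histamine and heparin in granules. They depend on the receptor tyrosine kinase KIT and its ligand, and they release their granules when antigen crosslinks IgE held on the high-affinity receptor FceRI. Basophils circulate in blood, share FceRI, histamine and GATA2 with mast cells, and in the mouse express the protease MCPT8. Connective tissue mast cells, the kind found in the mouse peritoneum, carry carboxypeptidase A3, the chymases MCPT4 and CMA1 and tryptase.

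GATA factors control many mast cell genes, so the sequence before the gene start was read for the 9 genes of the 10 that have an entry in RefSeq's promoter table (GRCm38.p6). Tpsb2 was not read. The motif began with A (AGATAA or, ending in G, AGATAG) or with T (TGATAA or, ending in G, the form TGATAG) and was searched on both strands within the 250 bases before the start. It was present in 6 of the 9 genes (Cpa3, Mcpt4, Cma1, Fcer1a, Ms4a2 and Hdc). These 9 genes have 11 windows, since Kit and Gata2 have more than 1. Over all genes, 26.5% of 32851 such windows held the motif, a share of windows and not of genes. Kit, Gata2 and Mcpt8 had no match in these windows, which says only that those letters do not occur there. A second motif, CACGTG or CATGTG on either strand, the E-box type that MITF binds, occurred in 1 of the 9 genes (Fcer1a) and in 17.6% of all windows. The windows of 5 genes are shown because their counts are compared below: the proteases Cpa3, Mcpt4 and Cma1, the receptor subunit Ms4a2 with its 3 matches, and Hdc, the member with the highest level. Each reads 5′ to 3′ on the gene's strand and ends at the base before the start, with the motif in capitals (as its reverse complement where it lies on the other strand). The windows are chr3:20242182-20242431 for Cpa3, chr14:56062311-56062560 for Mcpt4, chr14:55944676-55944925 for Cma1, chr19:11623720-11623969 for Ms4a2 and chr2:126618679-126618928 for Hdc, all on the minus strand. RefSeq's starts of Hdc, Mcpt4, Kit and Mcpt8, and a RefSeq start of Gata2, lie inside the gene spans of the deposited table. The bases that follow the Fcer1a window were not found in an annotated transcript of that gene.
Cpa3: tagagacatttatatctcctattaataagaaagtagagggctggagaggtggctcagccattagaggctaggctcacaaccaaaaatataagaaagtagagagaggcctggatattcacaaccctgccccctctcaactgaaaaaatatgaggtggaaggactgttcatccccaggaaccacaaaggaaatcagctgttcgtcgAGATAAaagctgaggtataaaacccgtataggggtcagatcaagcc
Mcpt4: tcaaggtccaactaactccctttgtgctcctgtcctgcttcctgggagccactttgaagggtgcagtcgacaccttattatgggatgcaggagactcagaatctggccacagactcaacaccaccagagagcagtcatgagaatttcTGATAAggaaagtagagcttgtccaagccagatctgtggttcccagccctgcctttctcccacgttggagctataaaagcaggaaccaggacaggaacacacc
Cma1: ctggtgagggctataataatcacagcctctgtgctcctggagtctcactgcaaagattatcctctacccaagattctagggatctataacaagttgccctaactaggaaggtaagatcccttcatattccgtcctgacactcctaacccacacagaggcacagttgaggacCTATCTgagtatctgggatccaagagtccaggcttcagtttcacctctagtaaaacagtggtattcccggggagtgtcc
Ms4a2: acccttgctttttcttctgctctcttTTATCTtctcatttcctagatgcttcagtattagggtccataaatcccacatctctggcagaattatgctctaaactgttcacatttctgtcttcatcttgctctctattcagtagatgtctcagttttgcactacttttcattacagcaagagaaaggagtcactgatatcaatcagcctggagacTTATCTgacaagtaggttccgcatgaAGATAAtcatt
Hdc: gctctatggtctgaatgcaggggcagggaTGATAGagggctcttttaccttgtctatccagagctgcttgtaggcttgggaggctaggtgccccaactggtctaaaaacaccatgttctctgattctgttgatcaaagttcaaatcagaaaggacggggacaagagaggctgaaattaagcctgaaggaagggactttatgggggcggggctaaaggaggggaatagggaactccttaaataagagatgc
The first base of the motif lay 46 bases before the start in Cpa3, 103 in Mcpt4, 79 in Cma1 and 221 in Hdc, and 224, 37 and 11 bases before it in Ms4a2. A match describes the letters and is not evidence of binding.

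Total counts ran from 18206427 to 22853583 per library. Levels are CPM, each count per 1e6 of its library's total after TMM scaling over the 8 libraries, or FPKM where genes are set beside each other. Men1 was at 8.16, 6.51 and 8.32 CPM in M_KO and 25.8, 17.1 and 21.4 CPM in M_WT, and at 11.8 CPM in F_KO and 18.0 CPM in F_WT. All 7 macrophage markers that were looked up were counted in the libraries, with Adgre1, encoding the F4/80 antigen, at a mean of 553.9 FPKM and Lyz2, encoding lysozyme, at 10345 FPKM. A gene with 0 counts may have had up to 3, which is 0.118 to 0.170 CPM depending on the library. These limits and the intervals below cover counting error only. Each title carries a number of its own, taken here as an animal number, and nothing else in the labels says that the libraries came from separate animals. The p-values measure only the spread between these libraries, which may be partly technical.

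The granule proteases of connective tissue mast cells varied widely between libraries of the same genotype. Their summed level was 20.1, 6.04 and 0 CPM in M_KO and 13.9, 1.28 and 2.18 CPM in M_WT. In the F pair it was 3.65 CPM in F_KO and 0.603 CPM in F_WT. M_KO_5944 and M_WT_5643 thus stood highest, M_KO_5645 came next, and the lowest of all was a KO library. The means were 8.70 ± 10.3 CPM in M_KO and 5.78 ± 7.02 CPM in M_WT (SD, n = 3 each), so in each group the SD exceeded the mean. In a bulk sample, fewer mast cells and less of these transcripts per mast cell cannot be told apart.

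**Figure D1:**
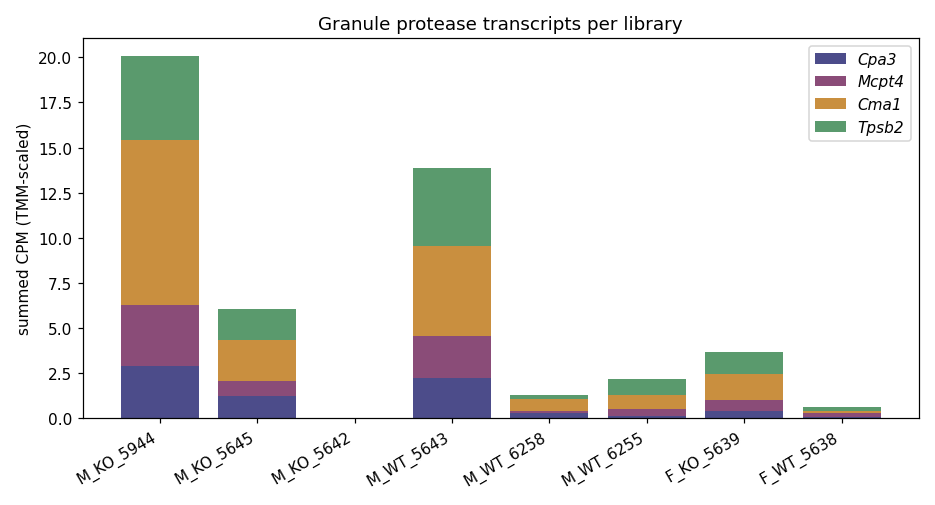
Summed TMM-scaled CPM of the mast cell granule proteases in each of the 8 libraries, stacked by gene (Mcpt8 had no counts). M_KO_5944 and M_WT_5643 stand highest at 20.1 and 13.9 CPM, and M_KO_5642 is at 0.

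Cma1 (ENSMUSG00000022225, chr14:55941451-55944675), named as a mast cell chymase, had the highest summed counts of the proteases over the libraries. Its counts were 161, 44 and 0 in M_KO and 101, 12 and 15 in M_WT, with 30 in F_KO and 3 in F_WT. As levels these were 9.13, 2.27 and 0 CPM in M_KO and 4.99, 0.638 and 0.760 CPM in M_WT. The M groups overlapped, since M_KO held both the highest and the lowest library. M_KO_5944 was at least 77.1-fold higher than M_KO_5642, taking 3 counts as the limit in that library.

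Tpsb2 (ENSMUSG00000033825, chr17:25366550-25368094), a tryptase, had 82, 33 and 0 counts in M_KO and 88, 4 and 18 counts in M_WT, with 25 in F_KO and 4 in F_WT. Its level reached 4.65 CPM in M_KO_5944 and 4.34 CPM in M_WT_5643. These highest libraries of the 2 genotypes were close to each other, while the other M_WT libraries were at 0.213 and 0.912 CPM. Mcpt4 (ENSMUSG00000061068, chr14:56059629-56062313), the mouse chymase thought closest in function to human chymase, had 60, 16 and 0 counts in M_KO and 47, 2 and 7 counts in M_WT, with 12 in F_KO and 5 in F_WT. Cpa3 (ENSMUSG00000001865, chr3:20215620-20242181), a carboxypeptidase that trims peptides and venom toxins, had 51, 24 and 0 counts in M_KO and 45, 6 and 3 counts in M_WT, with 9 in F_KO and 2 in F_WT. For both genes the M_KO libraries reached above and below all M_WT libraries.

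Cma1 held the highest share of the protease counts in the libraries where those counts were highest. Cma1 took 45.5% of 354 protease counts in M_KO_5944 (95% exact Clopper-Pearson interval 40.2 to 50.8), 37.6% of 117 in M_KO_5645 (28.8 to 47.0) and 35.9% of 281 in M_WT_5643 (30.3 to 41.9), and these intervals overlapped. Cpa3 took 14.4%, 20.5% and 16.0% in the same libraries, and Mcpt4 16.9%, 13.7% and 16.7%. In F_WT the whole class rested on 14 counts, so its shares are imprecise (Cma1 21.4%, interval 4.66 to 50.8). In M_KO_5642 no count fell on any of the class in 22853583, and the 3 counts that this allows equal 0.118 CPM for the sum. The next lowest library, F_WT, was at least 5.10-fold above that limit and M_KO_5944 at least 169.6-fold. Sequence shared with other genes was small: 5.48% of the stretches of 50 bases in annotated transcripts of Mcpt4 and 5.38% of those in Cma1 occur in another gene, among them the relatives Cma2 and Mcpt9 for Mcpt4, and 0% for Cpa3 and Tpsb2.

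Mcpt8 (ENSMUSG00000022157, chr14:56082166-56085273), the mouse basophil protease, had 0 counts in all 8 libraries. Basophil transcripts of this gene were therefore not detectable at this depth in either genotype.

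Of the receptor genes, Kit (ENSMUSG00000005672, chr5:75574916-75656722) was counted in every library and was in a different order over the libraries from the proteases. KIT is the receptor for stem cell factor, on which mast cells depend. Kit had 40, 30 and 40 counts in M_KO and 56, 44 and 16 counts in M_WT, with 33 in F_KO and 46 in F_WT. The levels were 2.27, 1.55 and 1.58 CPM in M_KO and 2.76, 2.34 and 0.811 CPM in M_WT, and the groups overlapped. The highest library of each M group was M_KO_5944 and M_WT_5643, as for the proteases. M_KO_5642, with no protease count, had as much Kit as M_KO_5645. Per length, Kit was at 0.171 to 0.254 FPKM in M_KO and 0.0900 to 0.310 FPKM in M_WT, whereas Cma1 reached 8.34 FPKM in M_KO_5944.

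Fcer1a (ENSMUSG00000005339, chr1:173221284-173227214) and Ms4a2 (ENSMUSG00000024680, chr19:11615523-11623719) encode the alpha and beta chains of FceRI, and both were near the limit of detection. Fcer1a had 2, 1 and 0 counts in M_KO and 5, 0 and 1 counts in M_WT, with 0 in both F libraries. Ms4a2 had 6, 0 and 0 counts in M_KO and 4, 0 and 1 counts in M_WT, with 0 in F_KO and 1 in F_WT. For both genes the highest library of each M group was again M_KO_5944 and M_WT_5643, at counts too low to compare the genotypes. The third chain of the receptor, Fcer1g, is shared with other Fc receptors of macrophages and was at 194.4, 148.1 and 310.8 CPM in M_KO and 204.6, 206.4 and 178.2 CPM in M_WT.

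Gata2 (ENSMUSG00000015053, chr6:88193891-88207032) encodes a transcription factor that mast cells and basophils need, and which blood progenitors and endothelium also use. It had 26, 17 and 3 counts in M_KO and 19, 16 and 8 counts in M_WT, with 36 in F_KO and 28 in F_WT. The levels were 1.47, 0.878 and 0.118 CPM in M_KO and 0.938, 0.851 and 0.405 CPM in M_WT. The M groups overlapped, and M_KO_5642 was again lowest. M_KO_5944 and M_WT_5643 were again the highest libraries of their M groups. The F libraries (1.73 CPM in F_KO and 1.21 CPM in F_WT) were above every M library except M_KO_5944, which lay between them.

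Hdc (ENSMUSG00000027360, chr2:126593667-126619299) encodes histidine decarboxylase, which makes histamine and is also expressed by macrophages and neutrophils. It was on another scale from the other members, with 2531 to 23513 counts per library and 93.9% to 99.4% of the summed member CPM. The levels were 371.1, 611.1 and 99.8 CPM in M_KO and 746.5, 301.2 and 349.1 CPM in M_WT. They were 1130.8 CPM in F_KO and 405.2 CPM in F_WT. The M groups overlapped. F_KO was highest and M_KO_5642 lowest, an 11.3-fold difference, and M_KO_5944, which led on the proteases, had less Hdc than 4 other libraries. Beside these values, the summed level of 5 neutrophil markers was 9.81, 4.65 and 9.70 CPM in M_KO and 8.69, 4.63 and 4.76 CPM in M_WT, and 16.4 CPM in F_KO and 3.40 CPM in F_WT. All 5 had a count in at least 1 library, but the defining marker Ly6g had 1 count over the 8 libraries. Their part in the Hdc values was not tested.

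**Figure D2:**
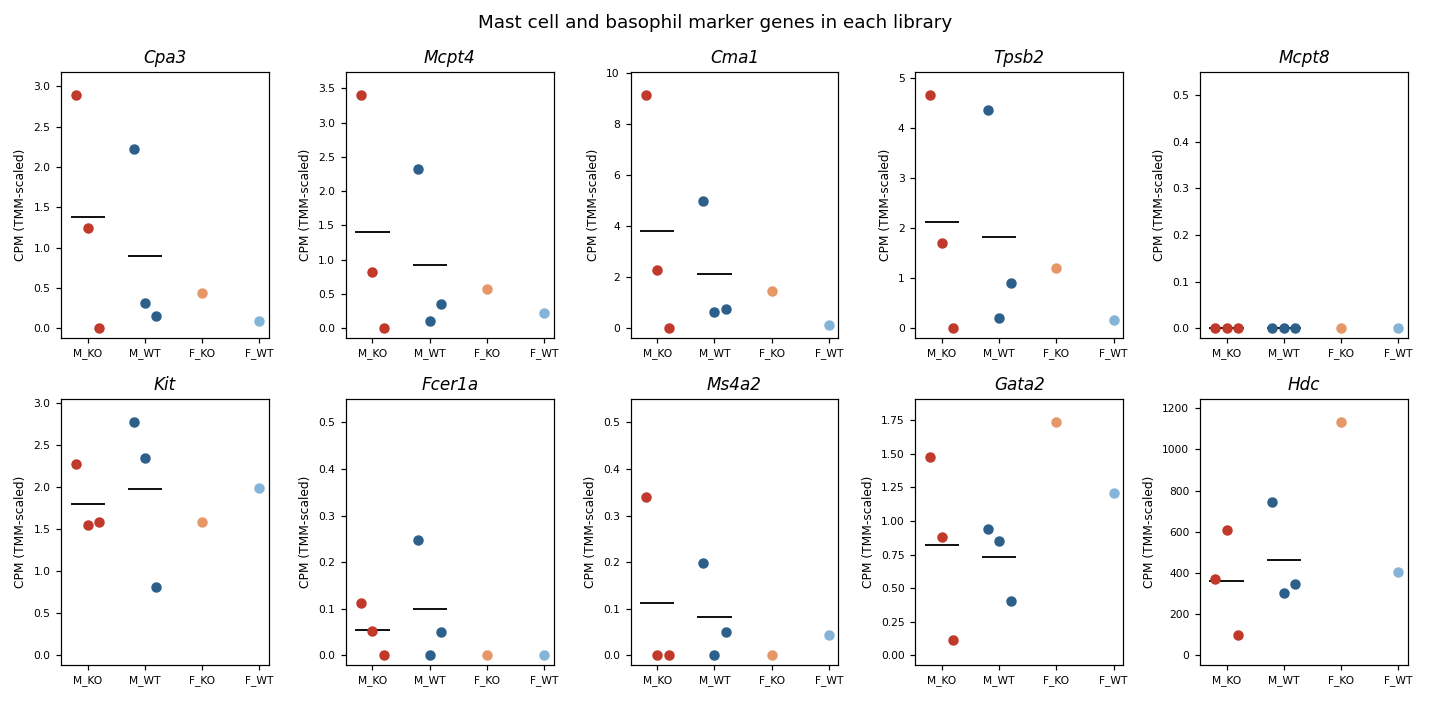
TMM-scaled CPM of each of the 10 members, with 1 point per library grouped as M_KO, M_WT, F_KO and F_WT and a line at the mean of the groups with 3 libraries. M_KO and M_WT overlap in every panel with counts, and Mcpt8 is at 0 throughout.

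None of the members was called between genotypes. Tests were edgeR's quasi-likelihood test over the whole table with Benjamini-Hochberg adjustment and a threshold of 0.05. In M_KO against M_WT, 7 members passed the filter on low counts and 0 were called, where 0.022% of 13646 genes were called. None had an unadjusted p under 0.05 (lowest 0.579, for Hdc). DESeq2 also called 0 members, where it called 1.21% of 15544 genes, and the authors' deposited table called 0 of the 9 members it holds, where it called 0.553% of 23513 rows. The M_KO and M_WT libraries overlapped for each of the 9 members with counts. Of the genes tested, which leave out Fcer1a and Ms4a2, 16.1% had libraries that did not overlap. With so few members, no contrast with that share can be drawn. The median log2 fold change was 0.19 over the 7 members tested and 0.01 over all genes tested.

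The estimates came with wide errors for the proteases and narrower ones for Kit and Hdc. The log2 fold change of M_KO over M_WT was 0.81 (SE 1.46) for Cma1, 0.58 (SE 1.40) for Cpa3, 0.56 (SE 1.47) for Mcpt4 and 0.19 (SE 1.44) for Tpsb2. It was -0.14 (SE 0.48) for Kit, 0.13 (SE 0.81) for Gata2 and -0.37 (SE 0.64) for Hdc. The edgeR adjusted p of these genes lay between 0.879 and 0.976. With errors of this size, protease differences of several fold in either direction could not be told from none. The protease values turned on single libraries: without M_KO_5944 the log2 fold changes were -0.58 for Cpa3, -1.22 for Mcpt4, -0.94 for Cma1 and -1.13 for Tpsb2, and without M_WT_5643 they were 2.50, 2.54, 2.42 and 1.87. With limma voom in place of edgeR, on all 6 M libraries, they were -0.61, -0.66, -1.28 and -1.23, in the same order of genes. The log2 ratio of the mean protease sum in M_KO over M_WT was 0.59 with all M libraries, -0.93 without M_KO_5944, 2.33 without M_WT_5643 and 0.81 without both, libraries left out after their values were seen. Hdc was at 0.15 without M_WT_5643 and 0.07 without M_KO_5642, against -0.98 without M_KO_5645.

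**Figure D3:**
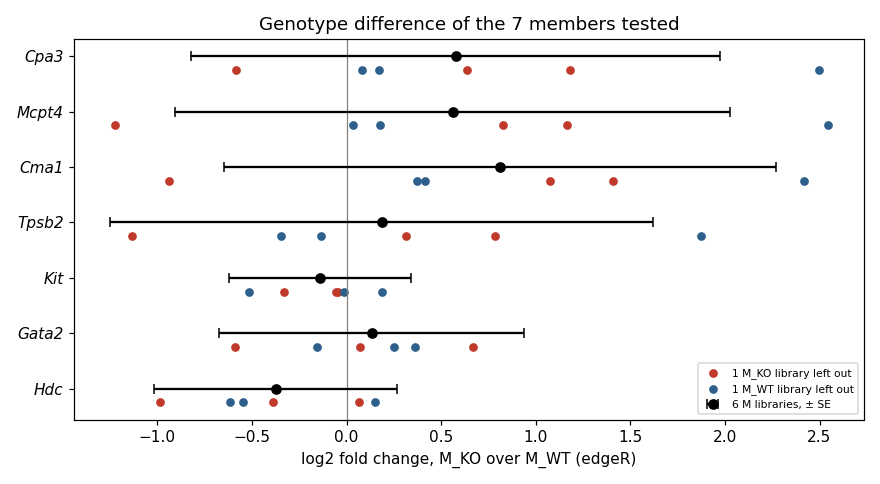
Log2 fold change of M_KO over M_WT from edgeR for the 7 members that passed the filter, as black points with standard errors, and below each the values with 1 library left out. The protease estimates lie on both sides of 0 depending on which library is left out.

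In the fit of genotype to the 8 libraries together, which also had a term for the letter, 6 members passed the filter (Cpa3 did not) and edgeR called 0 by genotype, where 0.00727% of 13751 genes were called. None had an unadjusted p under 0.05 (lowest 0.363), and DESeq2 called 0 members, where it called 0.874% of genes. The log2 fold change of KO over WT was 1.25 (SE 1.29) for Cma1, 0.73 (SE 1.23) for Mcpt4, 0.66 (SE 1.27) for Tpsb2, -0.18 (SE 0.39) for Kit, 0.24 (SE 0.64) for Gata2 and 0.07 (SE 0.61) for Hdc. Without M_KO_5944 the value for Cma1 was 0.04, and without M_WT_5643 it was 2.64. In F against M, edgeR called 0 of the 6 members, where 0.0291% of genes were called, with the lowest unadjusted p at 0.220. DESeq2 called 0 members there, and 0.0607% of genes. The interaction of genotype and letter was called for 0 of the 6, where 0.0218% of genes were called, with the lowest unadjusted p at 0.201. DESeq2 called 0 members there too, and 0.168% of genes. The F pair has 1 library per genotype, and there the summed proteases were 6.06-fold higher in F_KO than in F_WT, with no replicate check.

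The levels of the detected proteases were correlated over the libraries. Each member with counts was correlated with Cpa3 over the 8 libraries on log2 CPM with a prior count of 2, which gave 8 relations, each with a two-sided exact permutation test over all orders of the libraries. Cma1 had a Pearson r of 0.97 (p = 7.44e-05, adjusted 5.95e-04) and a Spearman rho of 0.98 (p = 3.97e-04, adjusted 0.00159, exact permutation tests). Mcpt4 had r = 0.94 (p = 9.92e-04, adjusted 0.00397) and rho = 0.93 (p = 0.00223, adjusted 0.00595), and Tpsb2 r = 0.93 (p = 0.00191, adjusted 0.00509) and rho = 0.98 (p = 3.97e-04, adjusted 0.00159), by the same exact tests. Without M_KO_5944 and M_WT_5643, the libraries farthest from the Cpa3 median, r was 0.93 for Cma1, 0.83 for Mcpt4 and 0.84 for Tpsb2. Within the 6 M libraries it was 0.97, 0.95 and 0.93. All points share the scaling of their library.

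Kit had r = 0.48 with Cpa3 (exact permutation p = 0.229, adjusted 0.229; rho = 0.43, p = 0.299, adjusted 0.299), and r was 0.07 without the 2 farthest libraries. Gata2 had r = 0.62 (exact permutation p = 0.0967, adjusted 0.129; rho = 0.57, p = 0.151, adjusted 0.228) and 0.62 without the 2 farthest. Hdc had r = 0.59 (exact permutation p = 0.120, adjusted 0.137; rho = 0.55, p = 0.171, adjusted 0.228) and 0.75 without them. For these last 2 genes r depended on which libraries entered: without M_KO_5642 it was 0.32 for Gata2 and 0.27 for Hdc, a library left out after the values were seen, while r for Mcpt4, Cma1 and Tpsb2 was then between 0.89 and 0.96. Within the 6 M libraries, M_KO_5642 among them, r was 0.92 for Gata2, 0.82 for Hdc and 0.57 for Kit. Fcer1a (r = 0.78, exact permutation p = 0.0185, adjusted 0.0369; rho = 0.79, p = 0.0310, adjusted 0.0619) and Ms4a2 (r = 0.67, p = 0.0702, adjusted 0.112; rho = 0.48, p = 0.226, adjusted 0.259) rest on at most 6 counts per library. Without the 2 farthest libraries their r was 0.48 and -0.36, so both relations rested on M_KO_5944 and M_WT_5643.

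**Figure D4:**
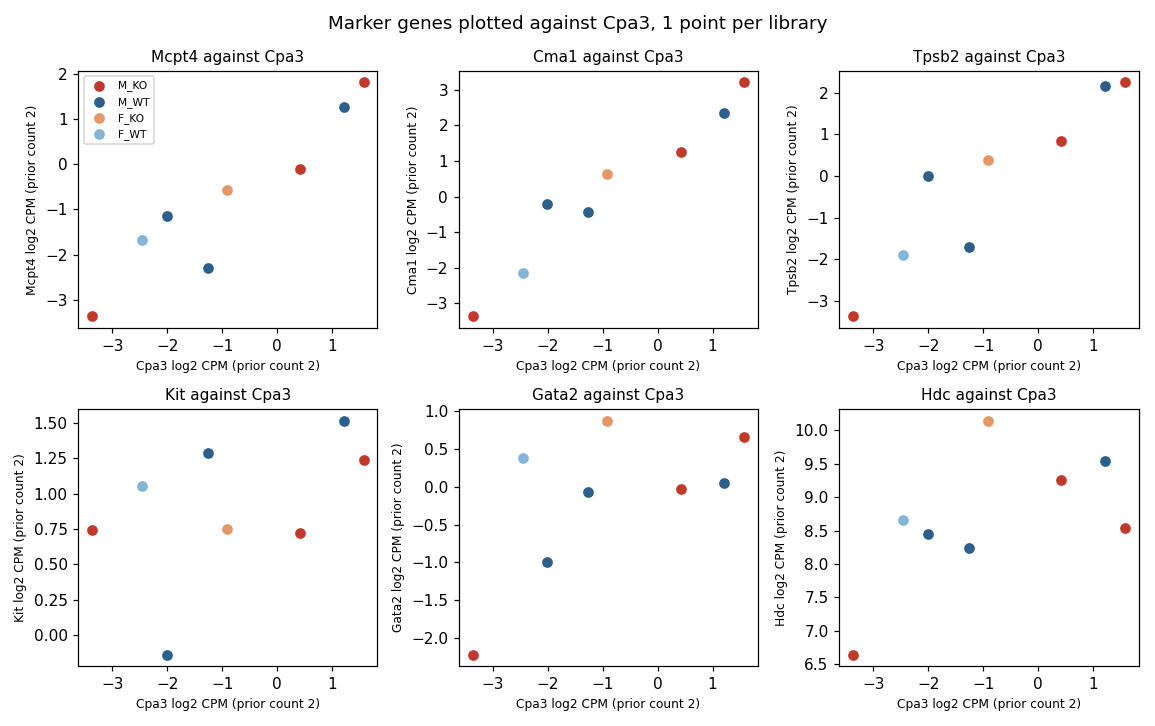
Log2 CPM (prior count 2) of 6 members against that of Cpa3, with 1 point per library coloured by group. The points of Mcpt4, Cma1 and Tpsb2 rise with Cpa3 (r of 0.93 to 0.97), and those of Kit, Gata2 and Hdc scatter (r of 0.48 to 0.62).

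The proteases were also among the most variable transcripts of the series. The highest and lowest libraries differed by 6.57 on the log2 CPM scale for Cma1, 5.61 for Tpsb2, 5.17 for Mcpt4 and 4.95 for Cpa3, where the median over 13751 tested genes was 0.92. For each protease the lowest library was M_KO_5642 at 0 counts. Its log2 CPM there (-3.37) is set by the prior count of 2, so the size of these ranges depends on that setting. Low counts widen such a range, but the median over 3985 tested genes with a mean of 0.5 to 5 CPM was 1.54, and the range of each protease was wider than in 98.8% to 99.9% of them. Cpa3 (98.8%) itself failed the filter that defines the tested genes, which drops genes with enough counts in too few libraries. Genes shaped like Cpa3 may therefore be missing from this comparison. Kit (1.66) was near that median, and Gata2 (3.09) lay between it and the proteases. Hdc (3.50) was at a far higher level than these genes, and its range was wider than in 96.8% of all tested genes.

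Further mast cell genes gave a mixed picture. Of 15 that were looked up, 6 passed the filter in M_KO against M_WT and edgeR called 0, with 3 higher, 3 lower and a median log2 fold change of 0.05. Tph1, which makes serotonin in mouse mast cells, had 45, 7 and 4 counts in M_KO and 36, 0 and 5 counts in M_WT. Cyp11a1, a steroid synthesis enzyme, had 16, 5 and 3 counts in M_KO and 17, 0 and 1 counts in M_WT. Rab27b, a GTPase of granule release, had 9, 2 and 0 counts in M_KO and 10, 0 and 0 counts in M_WT. In each of these 3 genes M_KO_5944 and M_WT_5643 were the highest libraries, and the same held for Tpsg1, Mrgprb1 and Tpsab1. It did not hold for Adora3, at 0.397 CPM in M_KO_5944 and 1.91 CPM in M_KO_5645. Nor did it for Mrgprb2, with 0 counts in both M_KO_5944 and M_WT_5643. Tpsab1, the other beta-type tryptase gene, had 40, 17 and 2 counts in M_KO and 25, 16 and 22 counts in M_WT, and its groups overlapped. Tph1, Cyp11a1, Rab27b, Tpsab1, Tpsg1, Mrgprb1, Adora3 and Mrgprb2 were named after their values were seen. The genes with the highest levels in the list were Mitf, a transcription factor also used by macrophages, at 214.6, 112.8 and 182.2 CPM in M_KO and 259.8, 224.5 and 192.9 CPM in M_WT, and Ndst2, an enzyme of heparin synthesis, at 61.8 to 72.3 CPM in M_KO and 53.4 to 65.2 CPM in M_WT. Slc18a2, the vesicular monoamine transporter, was at 2.48 to 3.86 CPM in M_KO and 2.55 to 4.10 CPM in M_WT, and Il1rl1, the interleukin-33 receptor, at 3.80, 8.94 and 0.749 CPM in M_KO and 3.21, 1.38 and 1.11 CPM in M_WT. Mcpt1, Mcpt2 and Mcpt9, proteases of mucosal or uterine mast cells, had 0 counts in all 8 libraries.

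Further basophil genes had few counts or ran in another order than the proteases. Of 7 that were looked up, 4 passed the filter and edgeR called 0 (3 higher and 1 lower in M_KO, median log2 fold change 0.73). Prss34, a basophil and mast cell protease, had 1, 0 and 0 counts in M_KO and 4, 0 and 0 counts in M_WT, with 0 in both F libraries. Gata1, a factor of erythroid, mast cell and related lineages, had 2 counts over the 8 libraries. Both were named after their values were seen. Cd200r3, a receptor of basophils and mast cells, was at 0.340, 5.58 and 0.986 CPM in M_KO and 1.68, 0.798 and 1.06 CPM in M_WT, and at 4.62 CPM in F_KO and 5.82 CPM in F_WT, an order unlike that of the proteases. Il3ra, a chain of the interleukin-3 receptor, was at 18.1 to 49.5 CPM in M_KO and 18.1 to 23.7 CPM in M_WT. Il4, a cytokine of basophils and T helper cells, was at 0.568 to 2.68 CPM in M_KO and 1.18 to 3.09 CPM in M_WT, and Itga2b, an integrin of platelets and progenitors, at 0.624 to 1.96 CPM in M_KO and 0.304 to 0.740 CPM in M_WT.

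The signalling genes downstream of FceRI are used by macrophages as well. Of 11 genes of IgE receptor signalling and lipid mediator synthesis, 10 passed the filter and edgeR called 0 (7 higher and 3 lower in M_KO, median log2 fold change 0.13). The kinases Syk and Lyn were at 535.3 to 632.6 and 254.2 to 441.1 CPM in M_KO and 648.8 to 686.5 and 272.7 to 318.1 CPM in M_WT. The M groups did not overlap for Syk. They also did not for Hpgds (2.61 to 3.43 CPM in M_KO, 4.74 to 10.6 CPM in M_WT), named after its values were seen. Of all tested genes, 16.1% had M groups that did not overlap. Alox5ap, which passes arachidonic acid to 5-lipoxygenase, was at 283.7 to 318.3 CPM in M_KO and 268.8 to 292.6 CPM in M_WT. Of 5 genes of the KIT ligand and mast cell cytokine axis, 4 passed and edgeR called 0 (2 higher and 2 lower). Kitl, the ligand of KIT, was at 3.06, 2.63 and 0.513 CPM in M_KO and 1.73, 3.62 and 2.03 CPM in M_WT. Il9r, the receptor of interleukin-9, a mast cell growth factor, was at 2.37 to 3.36 CPM in M_KO and 1.67 to 4.15 CPM in M_WT. Il33, an alarmin that acts on mast cells, was at 0.397, 0.362 and 0.394 CPM in M_KO and 1.23, 1.49 and 0.760 CPM in M_WT. Its M groups did not overlap either, on 7 to 28 counts per library, and it was not called (edgeR log2 fold change -1.58). Il18r1, a chain of the interleukin-18 receptor, was at 0.118 to 1.13 CPM in M_KO and 0.101 to 0.691 CPM in M_WT.

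Markers of other cells that could carry some of the members were also summed, and their part in the member values was not tested. The neutrophil sum given above was highest of the M libraries in M_KO_5944 (9.81 CPM), which led on the proteases. It was almost the same in M_KO_5642 (9.70 CPM), which had no protease count. The eosinophil, progenitor and B cell sums in M_KO were highest in M_KO_5645. Of the M_WT libraries, M_WT_5643 had the highest eosinophil and B cell sums and the lowest progenitor sum. The summed level of 5 eosinophil markers was 3.51, 7.59 and 2.21 CPM in M_KO and 4.10, 3.35 and 1.87 CPM in M_WT, with Epx and Prg2 at no more than 3 counts over the 8 libraries. The sum of 4 blood progenitor markers was 1.70, 4.13 and 2.56 CPM in M_KO and 2.17, 3.78 and 2.53 CPM in M_WT, with Mpo at 0. The sum of 5 B cell markers was 126.4, 249.6 and 87.2 CPM in M_KO and 151.9, 63.8 and 62.3 CPM in M_WT. Summed T cell and NK cell markers stayed at or under 1.14 CPM in every library. In M_KO against M_WT, edgeR called 0 of the 3 eosinophil, 3 progenitor and 5 B cell markers that passed the filter. No T cell or NK cell marker passed it, so none was tested.

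The 8 genes most like the mean profile of the 6 members tested over 8 libraries were taken from 13745 other genes by Pearson r on log2 CPM. That profile followed the proteases most, with r of 0.97 for Mcpt4, Cma1 and Tpsb2, 0.77 for Gata2, 0.78 for Hdc and 0.37 for Kit. The 8 genes were Gm8355, Fnbp4, Ripor2, 5930403N24Rik, Olfr1033, Dyrk2, Amigo2 and Uhmk1, with r from 0.96 to 0.98. With 8 libraries and that many genes these values are a description only. Olfr1033, an olfactory receptor gene on chromosome 2, covered the widest span of them, at 210.4, 164.2 and 3.91 CPM in M_KO and 198.3, 33.0 and 69.8 CPM in M_WT, with 182.2 CPM in F_KO and 26.5 CPM in F_WT. Ripor2 spanned 18.7 to 91.2 CPM, lowest in M_KO_5642 and highest in M_KO_5944. None of the 8 is a gene of the mast cell or basophil lists.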

How the data were processed

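The library kit was NEBNext Ultra RNA, per the labels' protocols. Tools named in the submitters' processing notes are featureCounts 1.5.0-p3, HISAT2 2.0.5 and DESeq2 1.16.1, with builds GRCm38 and mm10. The strand setting, the handling of multi-mapping reads and the annotation were not stated. The authors deposited raw counts for each gene, without normalization, and FPKM values scaled by gene length and library. For M_KO against M_WT their deposited table gives log2 fold changes, p-values and adjusted p-values. The second deposited comparison table, of called genes, was not used.

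Counts were fitted over all genes with edgeR 4.0.16 in R 4.3.3 (TMM, quasi-likelihood test, default expression filter on genotype with a minimum count of 10, Benjamini-Hochberg threshold 0.05). Standard errors were the log2 fold change over the root of the F statistic. Correlations and permutations used Python 3.11.15. The tests were tried on simulated counts. Groups came from the sample titles. The members, lists and most tests were chosen with earlier results of these data known. Named were all members, Men1, up to 4 genes per related list by level, and the 8 genes most like the member profile. Exceptions are marked as named after their values were seen. Alternatives were DESeq2 1.42.0, limma 3.58.1 (voom, and log2(FPKM + 1)), other scalings and filters, a term for animal numbers beginning with 56, and leaving out each library. Shared sequence was counted on GENCODE M21 transcripts in stretches of 50 bases.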

Additional observations from a re-analysis of the deposited data

Results flagged for a closer look

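Among the 4 KO libraries, Kit in M_KO_5944 (2.27 CPM) stood apart from the other 3, which lay between 1.55 and 1.59 CPM. Chance alone gives such a gap in about 1 in 20 groups of 4, and 18 groups were looked at, 9 members in each genotype. Ms4a2 in M_KO_5944 (0.340 CPM, 6 counts) stood apart from 3 KO libraries with 0 counts. That chance rate does not hold for Ms4a2, since any gene counted in a single library of a group stands apart in this way.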

How the results depend on the processing

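The count of 0 members called held under all alternatives run, in M_KO against M_WT and over 8 libraries, while the count over all genes did not. In M_KO against M_WT, 3 genes were called by edgeR, 188 by DESeq2, 16 with no filter on low counts, and 0 (without M_WT_6255) to 21 (without M_WT_5643) with 1 library left out. Over 8 libraries the counts were 1 by edgeR, 132 by DESeq2, 7 with no filter and 0 (without M_WT_6258 or M_KO_5944) to 3 (without M_KO_5642 or F_KO_5639) with 1 library left out. The median member log2 fold change in M was 0.19, with limma voom -0.61, and with 1 library left out it ran from -0.59 (without M_KO_5944) to 1.87 (without M_WT_5643).

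Directions of single members were not stable, and the cause was not tested. With limma voom the M log2 fold changes were -0.61 for Cpa3, -0.66 for Mcpt4, -1.28 for Cma1, -1.23 for Tpsb2, -0.46 for Gata2 and 0.000987 for Kit, and over 8 libraries -0.17 for Mcpt4, -0.46 for Cma1, -0.39 for Tpsb2, -0.10 for Gata2 and -0.10 for Hdc. With 1 library left out, the M values ran from -0.58 to 2.50 for Cpa3, -1.22 to 2.54 for Mcpt4, -0.94 to 2.42 for Cma1, -1.13 to 1.87 for Tpsb2, -0.51 to 0.19 for Kit, -0.59 to 0.67 for Gata2 and -0.98 to 0.15 for Hdc. Over 8 libraries they ran from -0.52 to 2.21 for Mcpt4, 0.04 (without M_KO_5944) to 2.64 (without M_WT_5643) for Cma1, which kept its direction, -0.20 to 2.10 for Tpsb2, -0.47 to 0.0303 for Kit, -0.22 to 0.62 for Gata2 and -0.38 to 0.52 for Hdc. Adjusted p stayed at or above 0.433 in all of these fits.

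The summed level of all members follows Hdc: the log2 ratio of its M_KO mean over its M_WT mean was -0.35, from -0.93 (without M_KO_5645) to 0.18 (without M_WT_5643), and 0.41 without Hdc. Cpa3 failed edgeR's filter over 8 libraries, and its log2 fold change there was 0.97 by DESeq2, 0.85 with no filter and 0.83 with the stricter filter. Fcer1a and Ms4a2 failed it in both comparisons. With no filter they were at -0.89 and 0.33 in M, and at -0.84 and -0.05 over 8 libraries. Mcpt8 gave no value. Depth limits Fcer1a and Ms4a2, at no more than 6 counts per library. No paired analysis was possible because the groups share no animal number.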
